A study of Mus musculus with 2 samples.

Results

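Proneural factors are transcription factors of the basic helix-loop-helix (bHLH) class that move a dividing neural progenitor towards a neuron. 6 bHLH genes of retinal neurogenesis, Atoh7, Neurog2, Neurod1, Neurod4, Olig2 and the Hes-family gene Hes6, were followed here out of 31053 genes in the count matrices. They were chosen by name, for their place in retinal neurogenesis, and each had counts in both libraries. Counts are unique molecular identifiers (UMIs), each standing for 1 captured transcript.

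The cells came from mouse e13.5 eye cups (mid-gestation, when retinal neurogenesis has begun), with cornea, lens and optic nerve removed, dissociated with papain and profiled with droplet single-cell RNA sequencing. The control library was Myrf fl/fl and the mutant library was Rx>cre Myrf fl/fl, so both carried the floxed Myrf alleles and the control had no Cre. Rx>cre drives Cre in the early eye field, from which both the neural retina and the retinal pigment epithelium (RPE) arise. Each library was 1 pool of 3 samples with no map from cells to embryos, so there is 1 value per genotype, no spread between replicates and no test. All intervals are exact 95% intervals that cover counting error alone, and "higher" and "lower" describe these libraries.

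As background, proneural proteins bind E-box DNA (CANNTG) together with an E protein partner. Id proteins take up the E proteins and keep them from DNA, and the Hes1 and Hes5 repressors, switched on by Notch signalling, hold proneural genes down in progenitors. A cell that gains proneural activity shows Delta ligands to its neighbours, leaves the cell cycle and takes a fate. Atoh7 is required for retinal ganglion cells, Neurog2 carries the front of neurogenesis across the retina, Neurod1 and Neurod4 act in photoreceptor and amacrine precursors, Olig2 marks progenitors near their last division, and Hes6 opposes Hes1.

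The libraries held 6039 control and 6754 mutant barcodes, with 63483835 and 75228861 UMIs, of which 5468 and 6300 cells were kept. Clusters, made without the 6 genes and without Myrf, were named from marker lists, and 2339 control and 2641 mutant cells were retinal, with medians of 11274 and 10288 UMIs. In the order control then mutant, 1658 and 1754 were retinal progenitor-like, 150 and 170 neurogenic-like, 29 and 28 photoreceptor precursor-like, 324 and 434 ganglion-like and 52 and 61 amacrine or horizontal-like. All 12 progenitor, 12 neurogenic and 14 ganglion markers were detected in their class, as were 7 of 10 photoreceptor markers (not Pde6b, Rcvrn and Samd7) and 11 of 12 amacrine or horizontal markers (not Gad1), and each list summed higher in its class than in the other retinal cells of both libraries. The same lists named the classes, so these sums are no independent check of the names. A further 3 clusters of retinal neurons, called n5, n7 and n8, did not meet the naming rule. n5 was led by Gal, Insm2 and Btbd17, while n7 and n8 were shallow, with medians of 2768 and 3519 UMIs. In RPE-like cells Myrf was at 74.9 counts per 1000000 UMIs of the class (CPM) in the control and 20.1 in the mutant, and in retinal cells at 0.824 and 0.323. Outside all named classes were 717 control and 564 mutant cells with medians of 760 and 779 UMIs, which are not counted as retinal although Atoh7 was at 240.1 and 144.5 CPM in them. The libraries shared 72 barcodes, 3 of them on retinal cells of each library. Haemoglobin transcripts, a sign of free RNA from red blood cells, were at 459.7 and 3109 CPM in progenitor-like cells and at 320.9 and 697.9 in neurogenic-like cells, and were lower in the mutant in ganglion-like cells, at 11208 and 2103. As the measure of free or stray retinal RNA, each gene is set beside its level in 209 control and 488 mutant red blood cell-like cells, with medians of 22489 and 22724 UMIs.

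The 6 genes are small. In the GENCODE vM21 annotation of GRCm38, the mm10 build, Atoh7 (ENSMUSG00000036816) lies at chr10:63099651-63101279 on the plus strand, Neurog2 (ENSMUSG00000027967) at chr3:127633135-127635631 on the plus strand and Neurod1 (ENSMUSG00000034701) at chr2:79452521-79456751 on the minus strand. Neurod4 (ENSMUSG00000048015) lies at chr10:130268152-130280240 on the minus strand, Olig2 (ENSMUSG00000039830) at chr16:91225457-91228677 on the plus strand and Hes6 (ENSMUSG00000067071) at chr1:91411483-91414038 on the minus strand. Neurod1 overlaps Cerkl on the same strand and the long noncoding RNA Gm26755 on the other, and these had 42 and 6 UMIs over all control barcodes and 51 and 2 in the mutant.

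The promoters of the 4 members whose level was highest in the neurogenic-like class among named classes are shown because E-boxes, the sites that proneural proteins bind, are present upstream of some and not of others. Each line is the stretch of the RefSeq window (250 bases before the RefSeq start, GRCm38.p6) that lies before the GENCODE gene, 5′ to 3′ on the gene's strand, with every CANNTG in capitals.
Atoh7, chr10:63099535-63099650, plus strand: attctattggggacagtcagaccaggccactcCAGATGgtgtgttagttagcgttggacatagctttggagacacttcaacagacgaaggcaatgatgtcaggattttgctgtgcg
Neurog2, chr3:127632886-127633134, plus strand: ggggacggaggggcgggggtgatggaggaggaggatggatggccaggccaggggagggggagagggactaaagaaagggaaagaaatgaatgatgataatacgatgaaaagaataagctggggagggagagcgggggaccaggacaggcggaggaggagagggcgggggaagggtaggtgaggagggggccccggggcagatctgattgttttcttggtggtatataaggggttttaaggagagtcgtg
Olig2, chr16:91225300-91225456, plus strand: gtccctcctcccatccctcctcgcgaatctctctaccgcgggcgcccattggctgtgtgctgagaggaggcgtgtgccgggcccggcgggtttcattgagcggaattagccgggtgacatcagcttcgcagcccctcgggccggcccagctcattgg
Hes6, chr1:91414039-91414288, minus strand: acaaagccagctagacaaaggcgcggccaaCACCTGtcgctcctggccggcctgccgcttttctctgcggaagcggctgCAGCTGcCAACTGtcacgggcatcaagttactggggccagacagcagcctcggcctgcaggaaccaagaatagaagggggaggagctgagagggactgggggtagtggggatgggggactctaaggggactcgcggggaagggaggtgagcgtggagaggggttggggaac
In the whole windows, Atoh7 held CAGATG at 218 bases before the RefSeq start and CACCTG at 67 and 57 bases before it. Hes6 held CACCTG at 220, CAGCTG at 171 and CAACTG at 164 bases before its first start, and CAGCTG at 150 bases before a second. Neurod1 held CATATG at 242 bases, and no CANNTG was found for Neurog2, Olig2 or either start of Neurod4. Searched on both strands, CANNTG was in 66.2% of 32851 RefSeq promoter windows, CAGCTG in 13%, CAGATG in 14.4% and CACCTG in 17.2%. These matches are letters, not measured binding sites.

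Atoh7, the determinant of the ganglion cell path, was concentrated in neurogenic-like cells. Its level there was 9244 CPM (9120 to 9368) in the control and 9208 CPM (9088 to 9329) in the mutant, and it was detected in 148 of 150 and 169 of 170 cells. In photoreceptor precursor-like cells it was at 4230 CPM (4014 to 4455) and 3496 CPM (3288 to 3713), and every one of the 29 and 28 cells held it. The transcript was thus present in photoreceptor precursors as well as on the ganglion path. Ganglion-like cells were at 2613 CPM (2557 to 2670) and 2441 CPM (2393 to 2490), and amacrine or horizontal-like cells at 1714 CPM (1606 to 1828) and 684 CPM (620.4 to 752.4). With cells named by cluster, the order of these 4 classes was the same in both libraries and no neighbouring intervals overlapped. This order depended on the naming. With each cell named by its own markers, control photoreceptor precursor-like cells were at 4818 CPM, above neurogenic-like cells at 3885 CPM. Amacrine or horizontal-like cells were then above ganglion-like cells, at 3302 against 705.6 CPM (control) and 2847 against 698.7 CPM (mutant).

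In progenitor-like cells Atoh7 was at 82.7 CPM (78.7 to 86.8) in the control and 111.6 CPM (106.9 to 116.4) in the mutant. Red blood cell-like cells were at 95.5 CPM (86.5 to 105.3) and 107.2 CPM (100.9 to 113.7). A single red blood cell-like cell held 236 of the 407 control UMIs, and another held 210 of the 1099 mutant UMIs. Without these cells, left out after the data were seen, the red blood cell-like levels were 40.5 CPM (34.6 to 47.0) and 87.1 CPM (81.4 to 93.0), under the progenitor levels, so the standing of progenitor-like cells against this background depends on 1 cell in each library. After each cell was thinned to 5000 UMIs, 179 of 1134 control (15.8%) and 168 of 1244 mutant progenitor-like cells had an Atoh7 UMI, against 8.62% and 6.34% of red blood cell-like cells (unthinned 29.4% and 24.0%, against 23.9% and 19.9%). No order is read between these classes. In a few progenitor-like cells the count was high, up to 83 UMIs in a control cell and 241 in a mutant cell.

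Within the neurogenic-like class the Atoh7 level differed by cluster. Cluster n4, led by Neurog2, Sstr2 and Olig2, was at 11347 CPM in the control and 10912 CPM in the mutant. Cluster n3, led by Atoh7, Gadd45a and Insm2, was at 8781 and 8515 CPM, and cluster n10, led by Neurog2, Cck and Mybl1, at 4294 and 5409 CPM. The unnamed cluster n5 was at 9271 CPM (9026 to 9522) in the control, where its interval holds the neurogenic-like level, and at 8332 CPM (8143 to 8524) in the mutant, below it. In single cells Atoh7 reached 474 UMIs (control) and 345 UMIs (mutant), and the neurogenic-like class held 51.6% and 48.6% of all retinal Atoh7 UMIs. Among ganglion-like clusters the level was lower in n2, which was led by the neurofilament and axon genes Sncg, Nefl and Nefm, at 1659 and 1112 CPM, than in n1, led by Isl1 and Igfbpl1, at 3416 and 3263 CPM.

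Neurog2, the neurogenin of the advancing neurogenic front, was found mainly in progenitor-like and neurogenic-like cells. The neurogenic-like level was 780.4 CPM (744.8 to 817.3) in the control and 844.8 CPM (808.7 to 882.1) in the mutant, and this class held 68.0% and 62.4% of the retinal Neurog2 UMIs. Fewer neurogenic-like cells had a UMI of it than of Atoh7: 55.3% and 60.6% after thinning (58.0% and 65.3% unthinned). Progenitor-like cells were at 37.6 CPM (34.9 to 40.4) and 53.8 CPM (50.6 to 57.2), above the red blood cell-like levels of 13.4 and 6.05 CPM, where 1 cell held 55 of 57 control UMIs and another 51 of 62 mutant UMIs (0.473 and 1.08 CPM without them). After thinning, 10.1% and 11.6% of progenitor-like cells had a UMI against 0.575% and 0.254% of red blood cell-like cells (15.9% and 16.8% against 1.44% and 2.05% unthinned).

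In the named classes of neurons Neurog2 was sparse. Photoreceptor precursor-like cells held 5 control and 2 mutant UMIs, ganglion-like cells 30 and 43, and amacrine or horizontal-like cells 14 and 24. Cluster n5, where Atoh7 was among its highest levels, held 2 Neurog2 UMIs in 45 control cells and 6 in 70 mutant cells. The control level of 3.44 CPM (0.416 to 12.4) lay below the red blood cell-like level, and the interval of the mutant level of 6.79 CPM (2.49 to 14.8) held it. Without the single highest red blood cell-like cell the background was lower, so from these few UMIs no expression is read. Cluster n4 had the most, at 1097 CPM (1036 to 1160) and 1242 CPM (1178 to 1308), against 379.7 and 418.4 CPM in n3 and 706.5 and 724.4 CPM in n10. The shallow cluster n8 was at 320.5 CPM (247.3 to 408.5) from 65 control UMIs and 604.3 CPM (498.0 to 726.5) from 113 mutant UMIs.

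Olig2, known for motor neurons and oligodendrocytes in the spinal cord and for a subset of neurogenic progenitors in the retina, was the most restricted of the 6 genes. Retinal cells held 188 control and 202 mutant Olig2 UMIs, of which 167 and 174 (88.8% and 86.1%) were in neurogenic-like cells, at 72.3 CPM (61.8 to 84.2) and 71.4 CPM (61.2 to 82.8). Cluster n4 alone, 64 control and 67 mutant cells, held 155 and 152 of them, at 139.7 CPM (118.6 to 163.5) and 133.6 CPM (113.2 to 156.6). Most Olig2 UMIs therefore sat in 1 small group of neurogenic-like cells in both pools. In the other neurogenic-like clusters the level was 9.96 and 18.6 CPM in n3 and 10.1 and 12.0 CPM in n10, while the unnamed shallow cluster n8 was at 49.3 CPM (23.6 to 90.7) and 69.5 CPM (37.0 to 118.9). Ganglion-like cells held 1 UMI and 0, the latter with 3 counts as its limit at 0.753 CPM. Progenitor-like cells held 7 and 11 UMIs, at 0.361 and 0.571 CPM, below the red blood cell-like levels of 1.88 and 1.46 CPM. Those levels came to 0 UMIs in the control and 0.196 CPM in the mutant without the single highest cell, and no expression is read from so few progenitor UMIs. After thinning, 17.7% and 17.5% of neurogenic-like cells had a UMI (25.3% and 27.1% unthinned), against 0.575% and 0.254% of red blood cell-like cells (0.479% and 0.615% unthinned).

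Neurod1, a factor of photoreceptor and amacrine differentiation, was highest in photoreceptor precursor-like cells, at 780.4 CPM (689.1 to 880.4) in the control and 696.5 CPM (605.5 to 797.3) in the mutant, where 27 of 29 and 28 of 28 cells had a UMI. Neurogenic-like cells came next, at 285.0 CPM (263.6 to 307.6) and 302.8 CPM (281.3 to 325.4), and held more of the retinal UMIs, 52.0% and 57.2%. After thinning, 77 of 141 and 96 of 160 neurogenic-like cells had a UMI (61.3% and 72.9% unthinned). Ganglion-like cells were at 43.9 and 32.9 CPM and amacrine or horizontal-like cells at 49.5 and 25.9 CPM, and these intervals overlap in each library. Progenitor-like cells were at 6.90 CPM (5.78 to 8.17) and 7.37 CPM (6.21 to 8.69), against 1.41 and 3.12 CPM in red blood cell-like cells. The drop from neurogenic-like cells to cluster n5, at 20.6 and 12.4 CPM, was again far steeper than for Atoh7.

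Neurod4 (also called Math3), which acts in amacrine and photoreceptor precursors, marked the photoreceptor precursor-like class more narrowly than Neurod1. Its level there was 478.9 CPM (408.0 to 558.6) in the control and 461.0 CPM (387.6 to 544.3) in the mutant. These 29 and 28 cells held 162 of 246 and 139 of 244 retinal UMIs, or 65.8% and 57.0%. Amacrine or horizontal-like cells were next, at 40.3 CPM (25.3 to 61.1) and 42.1 CPM (27.5 to 61.6), and neurogenic-like cells at 18.2 CPM (13.1 to 24.6) and 22.2 CPM (16.6 to 28.9). In the control these intervals just miss overlapping, and in the mutant they overlap. Within the neurogenic-like class n3 was at 27.4 and 43.5 CPM, and n10 held 1 control UMI and 0 mutant UMIs. Progenitor-like cells held 3 and 4 UMIs among 1658 and 1754 cells. Red blood cell-like cells held 0 control UMIs, which allows up to 0.704 CPM, and 10 mutant UMIs, 0.975 CPM.

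Hes6, an inhibitor of Hes1 that promotes neuronal differentiation, was the most widely detected. Neurogenic-like cells were at 2245 CPM (2184 to 2307) in the control and 2239 CPM (2180 to 2299) in the mutant, and progenitor-like cells at 192.9 CPM (186.8 to 199.2) and 192.2 CPM (186.1 to 198.5). The progenitor level stood well above red blood cell-like cells, at 17.4 and 17.6 CPM. After thinning, 45.4% and 44.7% of progenitor-like cells had a UMI against 5.75% and 3.81% of red blood cell-like cells (62.1% and 57.6% against 10.1% and 9.63% unthinned). Photoreceptor precursor-like cells were at 818.8 and 786.0 CPM, amacrine or horizontal-like cells at 672.8 and 654.9 CPM and ganglion-like cells at 521.3 and 476.1 CPM. The level did not fall to the progenitor level in any named class of neurons.

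**Figure D1:**
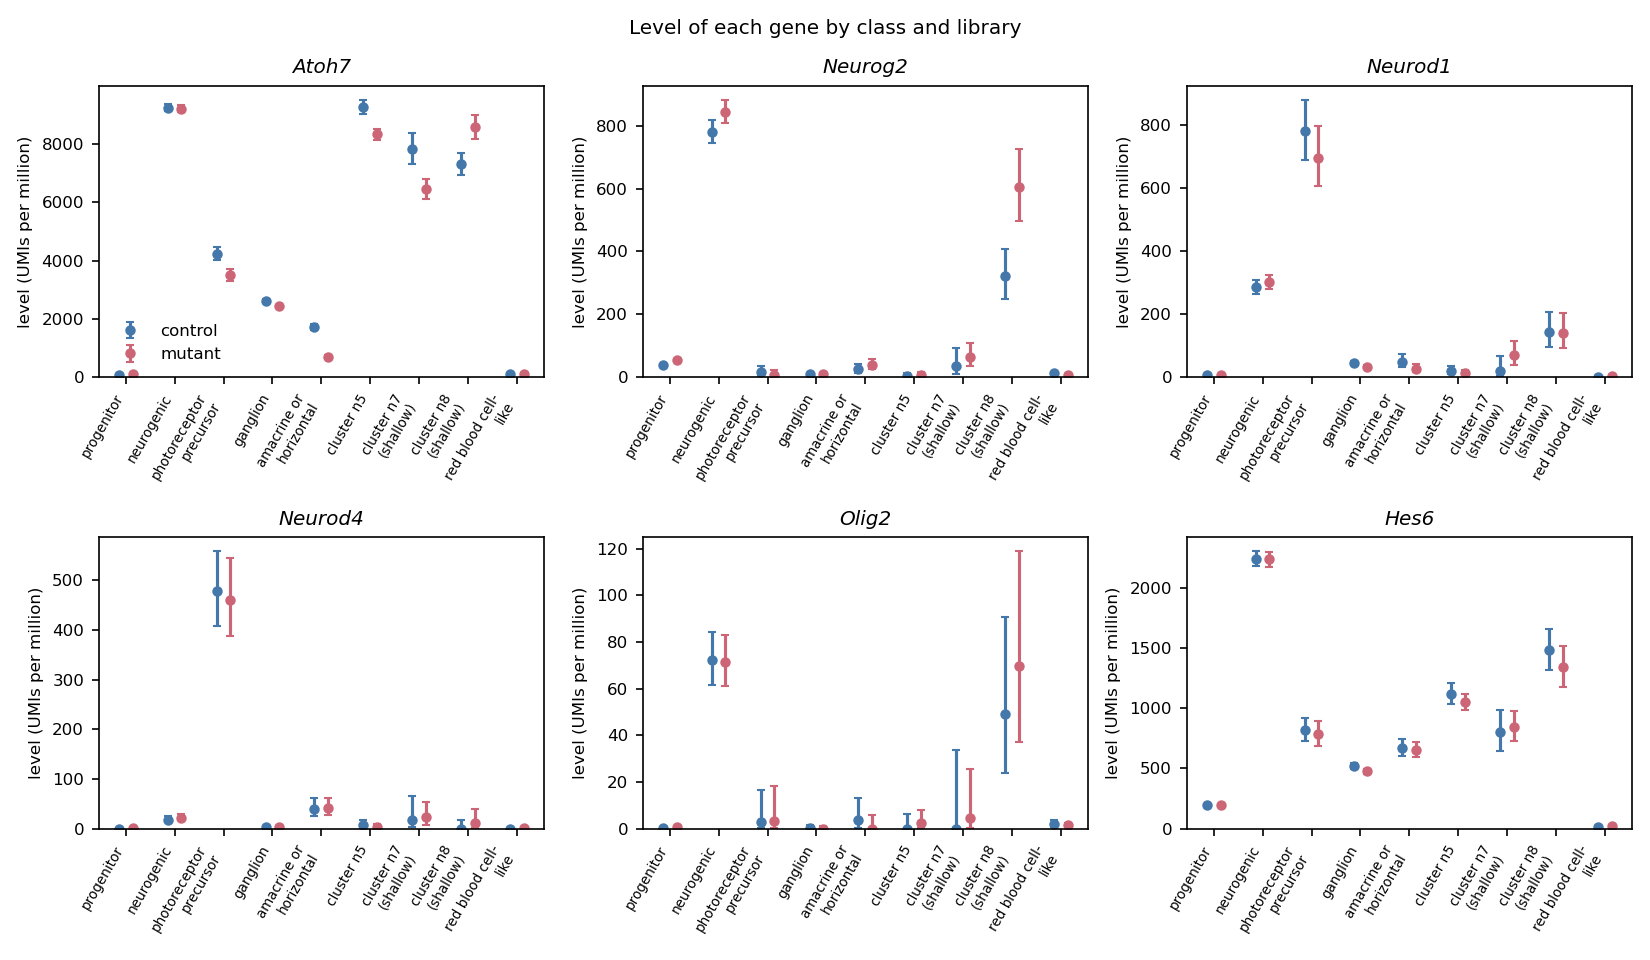
Level of each gene (CPM, linear axis from 0, with its own scale for each gene) in the retinal classes, the unnamed clusters n5, n7 and n8 and red blood cell-like cells. Points are the control and mutant libraries and bars are exact 95% Poisson intervals. Among named classes Atoh7, Neurog2, Olig2 and Hes6 are highest in neurogenic-like cells, and Neurod1 and Neurod4 in photoreceptor precursor-like cells.

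The number of the 6 genes seen in a single cell, after thinning, separated the classes. No member was detected in 44.2% of control and 46.3% of mutant progenitor-like cells, and in 87.4% and 92.1% of red blood cell-like cells. In the neurogenic-like class every thinned cell had at least 1, with 4 members in 28.4% and 36.9% of cells, 5 in 17.7% and 16.3% and all 6 in 2 control cells and 1 mutant cell. A second group of neurogenic-like cells, 36.2% and 26.3%, had exactly 2. Photoreceptor precursor-like cells mostly had 4 members (71.4% and 69.2%), ganglion-like cells 2 (65.3% and 66.7%) and n5 cells 2 (88.1% and 89.6%). Thinning kept 173 of 324 control and 234 of 434 mutant ganglion-like cells, and as counted in all of them 41.0% and 43.1% had 2 members and 10.5% and 11.1% had none. Among the thinned ganglion-like cells Atoh7 and Hes6 were the members seen most, in 96.5% and 95.7%, and in 90.8% and 84.6%.

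**Figure D2:**
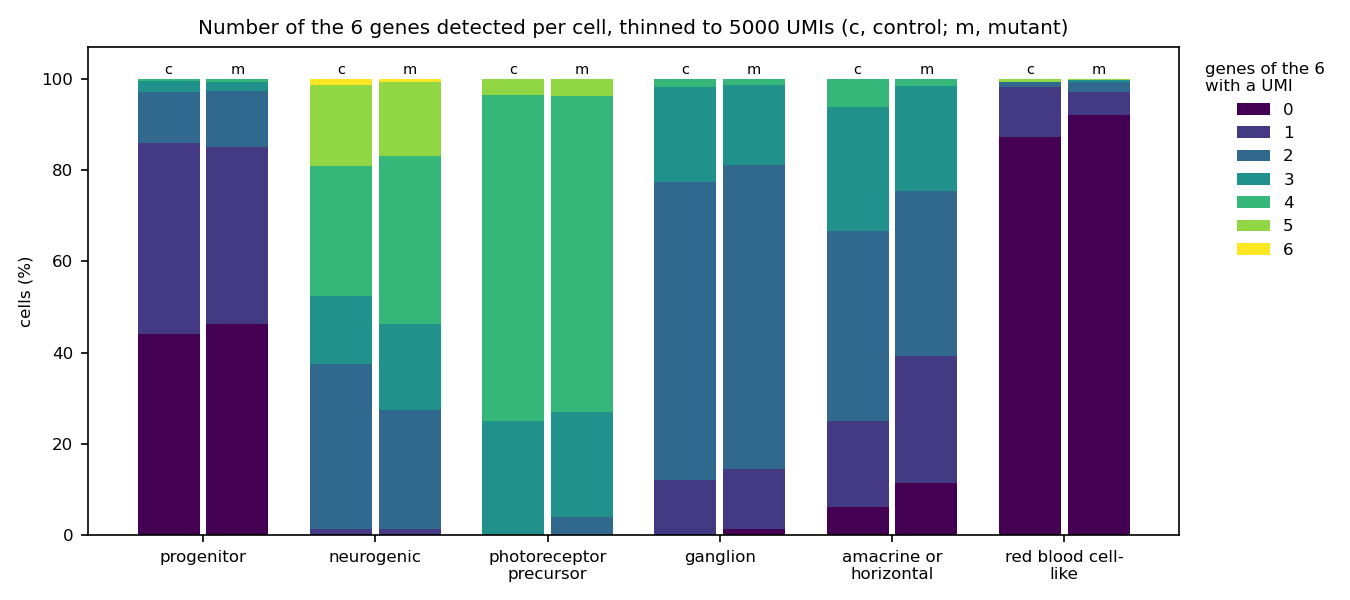
Stacked percent of cells (thinned to 5000 UMIs) by how many of the 6 genes had a UMI, for each named class and for red blood cell-like cells, with a control and a mutant bar each. Most progenitor-like cells are at 0 or 1, ganglion-like cells at 2 and photoreceptor precursor-like cells at 4, and neurogenic-like cells spread from 2 to 5.

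Co-detection in single retinal cells followed the restriction of each gene. Of thinned cells with an Atoh7 UMI, 121 of 602 in the control (20.1%, 17.0 to 23.5) and 158 of 700 in the mutant (22.6%) also had Neurog2, against 9.17% and 10.9% of cells without Atoh7. As counted, the shares were 232 of 1106 (21.0%) and 275 of 1213 (22.7%). Most cells with Atoh7 thus had no Neurog2 UMI. The reverse held for the narrow gene Olig2: 26 of 28 control and 29 of 33 mutant cells with Olig2 had Neurog2, and 25 of 28 and 26 of 33 had Neurod1. Among cells without Olig2, Neurog2 was seen in 11.9% and 14.1%. Only 12.3% and 10.4% of Neurog2 cells had Olig2, so Olig2 cells were nearly a subset of Neurog2 cells at this depth.

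Neurod4 and Neurog2 did not follow each other. Among thinned Neurog2 cells, 7 of 211 in the control (3.32%) and 10 of 280 in the mutant (3.57%) had Neurod4, against 2.55% and 2.86% of the cells without Neurog2. Neurod4 instead went with Neurod1, seen in 32 of 42 and 36 of 54 Neurod4 cells against 9.15% and 9.01% of the rest. Nearly all Neurod1 cells, 91.3% and 92.3%, had Atoh7. Within photoreceptor precursor-like cells alone, 22 of 27 and 23 of 25 Neurod1 cells had Neurod4, and Neurog2 was in 1 of 28 and 1 of 26 Atoh7 cells. Within neurogenic-like cells alone, 66 of 78 control Neurog2 cells (84.6%) had Neurod1 against 17.5% of those without Neurog2, and in the mutant 77 of 97 (79.4%) against 30.2%. Hes6 was in 83.6% and 83.1% of Atoh7 cells and in 44.4% and 44.0% of the rest. In red blood cell-like cells 1 of 15 control and 1 of 25 mutant Atoh7 cells had Neurog2. Neurod1, Neurod4, Neurog2 and Olig2 had few UMIs per cell, so a missing partner may be undetected and not absent.

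**Figure D3:**
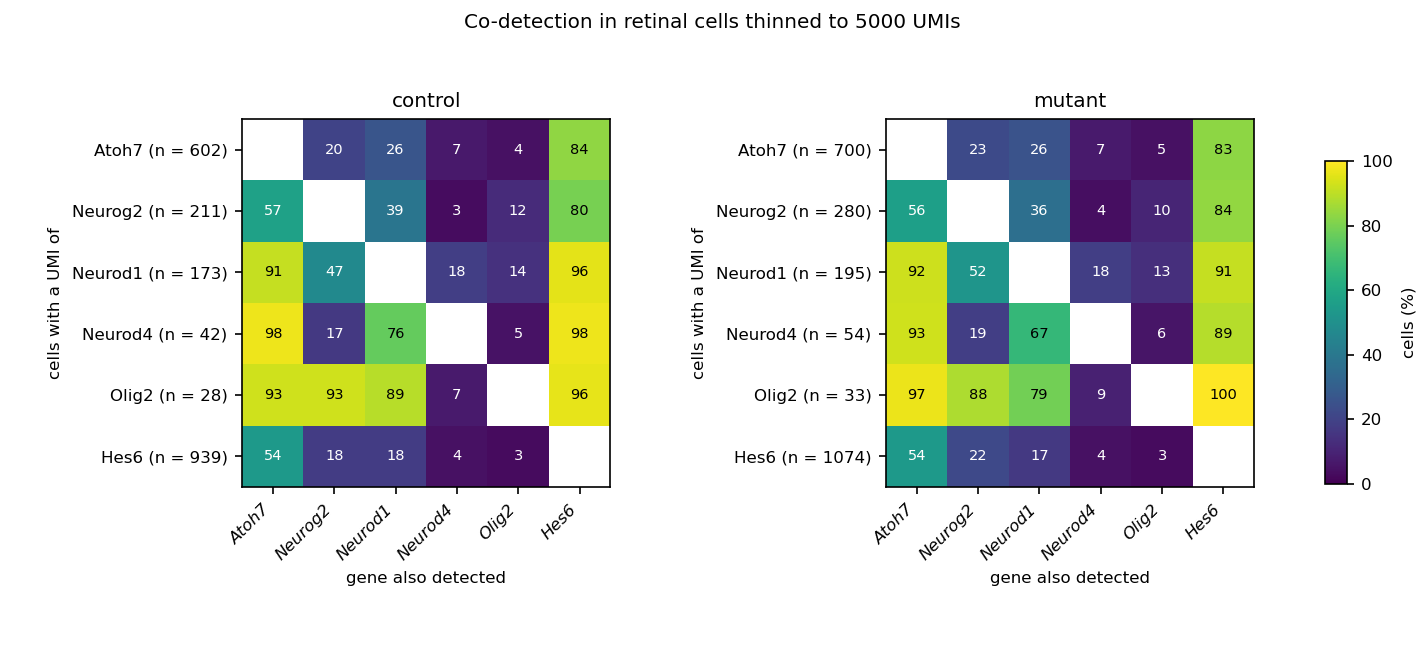
Percent of thinned retinal cells with a UMI of the second gene among cells with a UMI of the first, for each ordered pair and library, with percent as colour and number. The Olig2 row is high for Neurog2 and Neurod1 (92.9% and 89.3% in the control) and the Neurod4 column is low for Neurog2 (3.32%).

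Retinal cells were also grouped by their thinned Atoh7 count, which ranks cells by count alone. No order in time was computed. Over both libraries, 2099 cells had 0 Atoh7 UMIs, 405 had 1 to 4, 368 had 5 to 19, 336 had 20 to 49 and 193 had 50 or more. The first group was 96.8% progenitor-like, the 5 to 19 group 66.6% ganglion-like and the group at 50 or more 75.7% neurogenic-like. Neurog2 was at 37.5, 69.0, 73.2, 250.1 and 935.9 CPM over the 5 groups, and Olig2 at 0.312, 0.730, 0.728, 15.6 and 101.6 CPM. Both were thus concentrated at the top of the Atoh7 range. Neurod1, at 3.62, 32.5, 108.3, 162.7 and 287.8 CPM, and Hes6, at 163.0, 368.8, 682.4, 1292 and 2553 CPM, went up at every step. Neurod4 did not: it was at 0.437, 7.85, 35.1, 34.3 and 20.9 CPM. The libraries differed in where Neurod4 was highest, which was the 20 to 49 group in the control (49.5 CPM, against 28.6 CPM at 5 to 19) and the 5 to 19 group in the mutant (40.9 CPM, against 21.6 CPM at 20 to 49).

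Cell cycle genes split the Atoh7 range. The summed level of 8 G2 and M phase genes was 1807 CPM in cells without Atoh7, 420.8 CPM at 5 to 19 UMIs and 3107 CPM at 50 or more, and that of 8 S phase genes was 925.7, 289.6 and 1054 CPM in the same groups. The 8 neuronal genes went the other way, at 450.1, 12208 and 2185 CPM. Cells with the most Atoh7 therefore carried cell cycle transcripts and fewer neuronal ones than the 5 to 19 group, while cells with intermediate Atoh7 were largely ganglion-like neurons. Cells with the most Neurog2, 77 cells with 8 or more UMIs of which 90.9% were neurogenic-like, had G2 and M phase genes at 3798 CPM and neuronal genes at 911.2 CPM. For Olig2 the cell cycle signal was higher still: 52 cells with 1 or 2 UMIs were at 4732 CPM against 1552 CPM in cells with none. Among single genes, the mitotic gene Ube2c was at 1832 CPM in control cells with Olig2 and 511 CPM in those without (1345 and 468 in the mutant), and topoisomerase Top2a at 761 and 228 CPM (707 and 230). Neurod4 was the opposite, with Ube2c at 82.9 CPM with and 546 CPM without it in the control (281 and 490 in the mutant). The 22 cells with 3 or more Neurod4 UMIs, 90.9% of them photoreceptor precursor-like, had G2 and M phase genes at 59.6 CPM and neuronal genes at 4237 CPM.

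**Figure D4:**
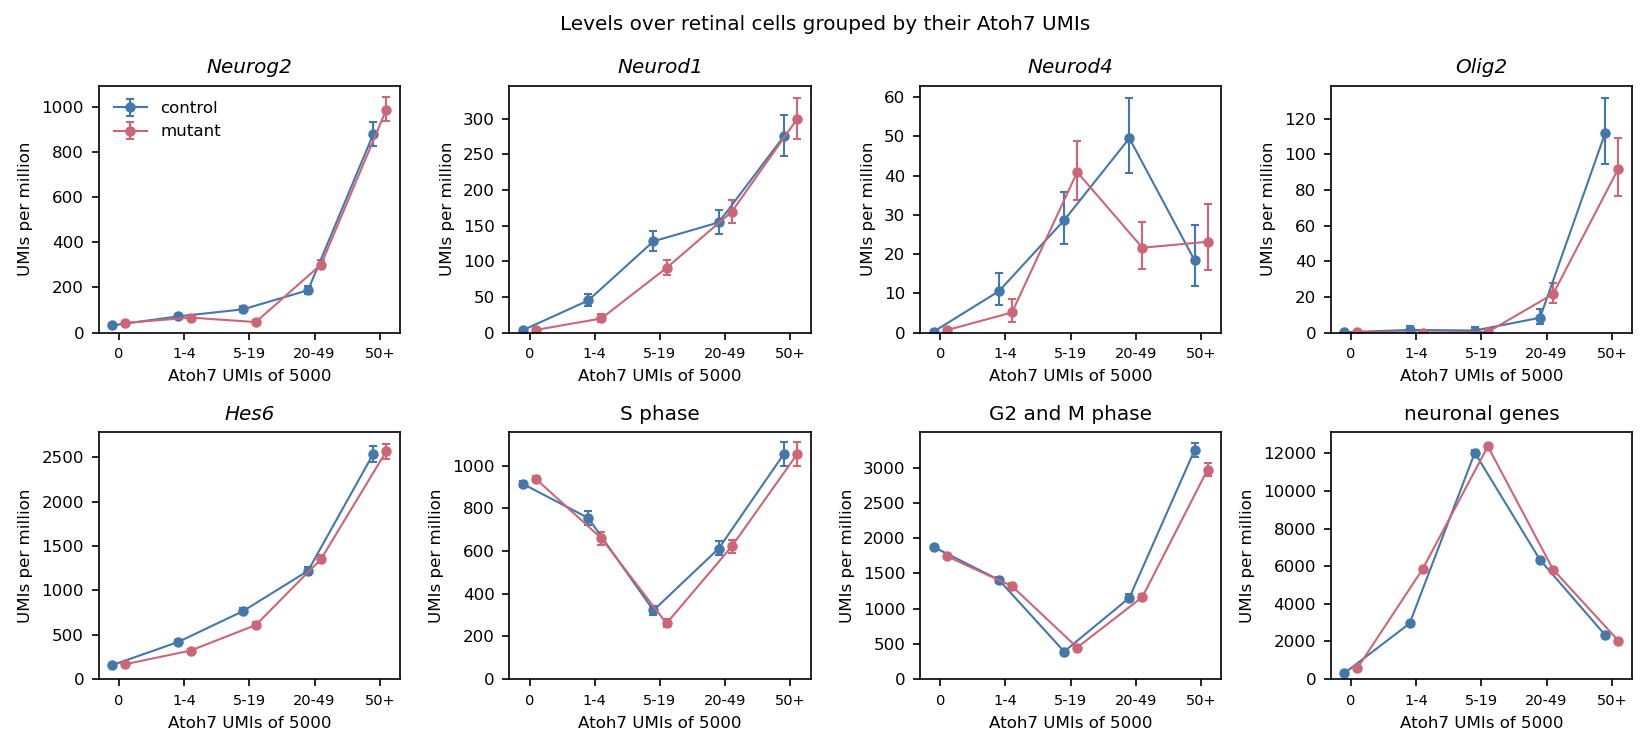
Levels (CPM, linear axis from 0, with its own scale in each panel) of the other 5 genes and of the S phase, G2 and M phase and neuronal lists in retinal cells grouped by their thinned Atoh7 UMI count. Points are the 2 libraries and bars are exact 95% Poisson intervals. Neurog2 and Olig2 climb in the last groups, Neurod4 is highest at 20 to 49 UMIs in the control and at 5 to 19 in the mutant, and G2 and M phase genes are low at 5 to 19 UMIs and high at 50 or more.

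The partners and opponents of the proneural proteins differed in how they went with Atoh7. Retinal cells of all classes were pooled for these contrasts. Cells without Atoh7 were 97.35% progenitor-like in the control and 96.24% in the mutant, so differences between classes enter the values. Contrasts within a class were not run. Of the E proteins, Tcf3 was at 121.4 CPM in control cells with Atoh7 and 130.2 CPM in those without, while Tcf4, at 102.2 and 63.8 CPM, and Tcf12, at 80.8 and 57.9 CPM, were higher with Atoh7. Id3, an inhibitor of E protein binding, was lower with Atoh7, at 339.4 against 1056 CPM in the control and 252.7 against 1042 CPM in the mutant. Hes1 was likewise lower with Atoh7, at 166.3 against 446.5 CPM, but Hes5 was higher, at 477.2 against 238 CPM. The neuronal tubulin Tubb3 was at 2878 against 108.6 CPM. Of the other tissue bHLH genes, Bhlhe22 (Bhlhb5, an amacrine and bipolar factor) was at 38.5 CPM with Atoh7 and 0.378 without. Ptf1a, the selector of amacrine and horizontal fates, was at 239 CPM in control cells with Neurod4 and 22.3 CPM in those without (124 and 21.4 in the mutant). Photoreceptor precursor-like cells, which held most Neurod4 UMIs, had 0 Ptf1a UMIs in each library. Amacrine or horizontal-like cells had Ptf1a at 927.6 and 849 CPM. Id3 in cells with Olig2 was at 102 CPM against 814 CPM in the control (99.1 against 761 in the mutant).

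The comparison of the genotypes asks whether loss of Myrf in the eye field went with a change in the retina's neurogenic programme. In all retinal cells none of the 6 members passed 1.5-fold, the size set for a difference, against 2.5% of 12365 genes with at least 50 UMIs (0.906% higher and 1.59% lower in the mutant). Atoh7 was at 1551 CPM in control and 1655 CPM in mutant cells, and the log2 ratio was 0.09 (0.07 to 0.11). Neurog2 was at 99.3 and 118.2 CPM, the furthest apart of the 6, with a log2 ratio of 0.25 (0.18 to 0.33). For Neurod1 the levels were 47.4 and 46.2 CPM, with a log2 ratio of -0.04 (-0.15 to 0.08). For the rest the log2 ratios were -0.08 (-0.34 to 0.19) for Neurod4 at 9.22 and 8.75 CPM, 0.04 (-0.25 to 0.33) for Olig2 and 0.03 (-0.01 to 0.06) for Hes6. The interval of Atoh7 and that of Neurog2 lay above 0, but they hold counting error alone and not the differences between pools of embryos. When cells were told apart by sex from X- and Y-linked transcripts, Atoh7 was at -0.10 among 702 control and 699 mutant female cells and at 0.25 among 518 and 642 male cells. Olig2 was at -0.75 and 0.60 in the same cells, so the direction differed between the sexes within the pools. Cells with transcripts of both kinds or of neither were in neither group. The Olig2 values rest on few UMIs, with 188 control and 202 mutant UMIs in all retinal cells before this split.

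In neurogenic-like cells, 6.41% of control and 6.44% of mutant retinal cells, 0 of 6 members passed 1.5-fold, against 4.58% of 7057 genes (1.74% higher, 2.83% lower). The log2 ratio was -0.01 for Atoh7, 0.11 (0.02 to 0.21) for Neurog2, 0.09 for Neurod1, 0.28 (-0.32 to 0.90) for Neurod4, -0.02 for Olig2 and -0.00 for Hes6. In progenitor-like cells 0 of the 4 members with 50 UMIs passed it, against 2.54% of genes. Neurog2 came closest, at 0.52 (0.38 to 0.66), followed by Atoh7 at 0.43 (0.34 to 0.53), while Neurod1 was at 0.09 and Hes6 at -0.00. The Atoh7 ratio rested on few cells: the 5 mutant cells with the most held 812 of 2149 UMIs (37.8%) and the 5 control cells 275 of 1605 (17.1%), and without them the ratio was 0.02. For Neurog2 it was 0.47 without them. Haemoglobin was also higher in mutant progenitor-like cells, and its part in these ratios was not tested.

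In photoreceptor precursor-like cells 0 of 4 members passed 1.5-fold, against 7.84% of genes. Atoh7 was the furthest from 0 among them, at -0.27 (-0.39 to -0.16), with Neurod1 at -0.16, Neurod4 at -0.05 and Hes6 at -0.06. In ganglion-like cells 0 of 4 passed, against 3.79% of genes, and Neurod1 was the furthest, at -0.42 (-0.77 to -0.06). In amacrine or horizontal-like cells 1 of 2 passed, against 7.72% of genes: the 52 control cells held 935 Atoh7 UMIs and the 61 mutant cells 423. The log2 ratio was -1.32 (-1.49 to -1.16). The 5 cells with the most Atoh7 held 44.9% (control) and 52.3% (mutant) of these UMIs. The ratio was -2.78 among female cells and 0.68 among male cells, and it was -0.72 with doublets kept and -0.21 with cells named 1 by 1 by their markers. Hes6 in the same cells was at -0.04. The members under 50 UMIs in named classes that lay past 1.5-fold, Olig2 in progenitor-like, ganglion-like and amacrine or horizontal-like cells, Neurog2 in photoreceptor precursor-like cells and Neurod1 in amacrine or horizontal-like cells, had intervals that reached across 0. In the unnamed clusters 0 of 2 members with 50 UMIs passed in n5, against 7.96% of genes, 0 of 2 in n7, against 7.64%, and 1 of 4 in n8, against 7.62%. The member in n8, which is shallow, was Neurog2, with 65 control and 113 mutant UMIs and a log2 ratio of 0.91 (0.46 to 1.38). Atoh7 in amacrine or horizontal-like cells and Neurog2 in n8 were thus the 2 ratios past 1.5-fold among members with 50 UMIs, and they lay on opposite sides of 0.

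**Figure D5:**
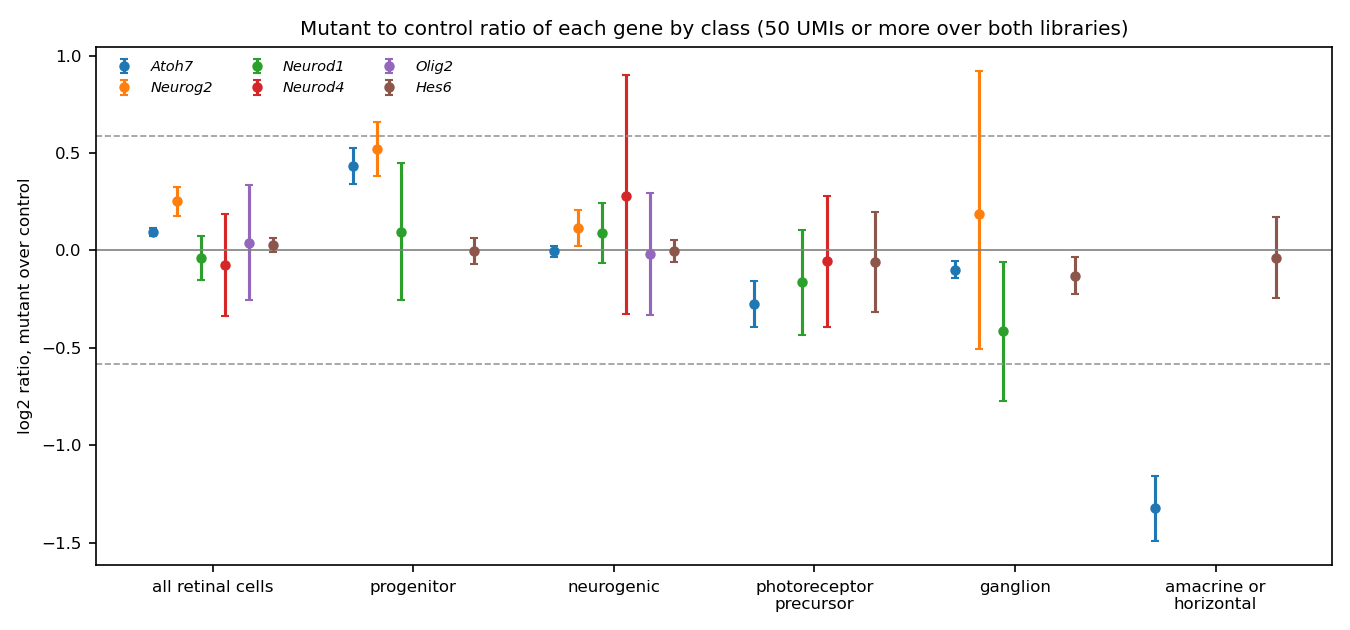
Log2 ratio of mutant to control level for each gene with at least 50 UMIs, in all retinal cells and in each named class, with exact 95% counting intervals and dashed lines at 1.5-fold. Atoh7 in amacrine or horizontal-like cells (-1.32) lies below the dashed lines, and every other point shown lies between them.

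The lists of related genes were also close between libraries in retinal cells, where no listed gene with 50 UMIs passed 1.5-fold. The median log2 ratio was 0.03 for 3 E proteins, 0.04 for 4 Id genes, -0.07 for 16 Notch genes, 0.10 for 24 targets and partners of proneural factors, -0.00 for 8 S phase genes, -0.13 for 8 G2 and M phase genes and 0.30 for 8 neuronal genes, against -0.02 for all genes. Progenitor-like cells were 70.88% of control and 66.41% of mutant retinal cells, and ganglion-like cells 13.85% and 16.43%. The neuronal median was 0.33 within progenitor-like, -0.13 within neurogenic-like and -0.44 within photoreceptor precursor-like cells. It was 0.07 within ganglion-like and 0.11 within amacrine or horizontal-like cells. The part of the class mix in the ratios over all retinal cells was not tested. In neurogenic-like cells the median of all genes was -0.04, and 2.83% of 7057 genes were lower in the mutant past 1.5-fold. So were 1 of 3 Id genes, 2 of 13 Notch genes, 1 of 19 targets and 1 of 7 neuronal genes. The Id gene was Id3, at 189.7 and 93.9 CPM (-1.01, -1.25 to -0.78). The Notch genes were the ligand Jag1, at 38.5 and 25.4 CPM (-0.59), and the glycosyltransferase Lfng, at 31.6 and 16.0 CPM (-0.97). The target was Gadd45g, at 388.0 and 253.6 CPM (-0.61), and the neuronal gene was Gap43, at 64.1 and 41.0 CPM (-0.64). None of the E proteins, S phase or G2 and M phase genes passed it there. In amacrine or horizontal-like cells 4 of 7 Notch genes were lower past 1.5-fold, against 7.72% of 3383 genes past it in either direction. Among them were Hes5 at 423.5 and 200.5 CPM (-1.07) and Hes1 at 121 and 71.2 CPM (-0.76). Alternatives by sex or naming were not run for these Notch genes. Id3 was higher in the mutant in this class, at 58.7 and 124.5 CPM (1.06), and lower in ganglion-like cells, at 56.7 and 27.9 CPM (-1.02). Gadd45g and other genes of these lists are also among the markers that named the classes.

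Likeness was measured as the Pearson correlation of log2 levels across 66 cluster and library points, over 10053 genes, as a description: points share libraries and neighbouring clusters share cells' depth. The genes most like Atoh7 were Srrm4 (0.94), Bhlhe22 (0.94), Btbd17 (0.93), Wdr66 (0.91) and Insm2 (0.90). Neurog2 was nearest to Mybl1 (0.86), Foxn4, Fezf2 and Insm1 (each 0.82) and Neurod1 (0.81), and Olig2 to Neurog2 and Sstr2 (each 0.80), Mybl1 (0.76), Dll4 (0.74) and Neurod1 (0.71). Neurod1 was nearest to Insm1 and Mybl1 (each 0.91), Onecut1 (0.90) and Dll3 (0.89), and Neurod4 to 3110035E14Rik (0.86), Ankrd33b (0.84), Plcl1 and Phf21b (each 0.81) and Trim9 (0.80). Hes6 was nearest to Fam110a (0.89), Btbd17 (0.87), Rcor2 and Srrm4 (each 0.86) and Zbtb18 (0.85). Within retinal clusters alone 1 of the 5 genes nearest to Atoh7 remained, 0 of those of Neurog2 and Hes6 and 2 of those of each of Neurod1, Neurod4 and Olig2, so the nearest genes depend on which clusters are compared.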

How the data were processed

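Eye cups of embryonic day 13.5 were pooled by genotype, 3 samples to a library, and profiled as droplet single-cell libraries, 1 for the control and 1 for the mutant. The authors deposited raw UMI counts per gene and barcode, and the submitters' processing notes name Cell Ranger 7.1.0, Seurat 4.1.1 and mm10. The stated upper limit of 2000 UMIs per cell, meant for doublets, would leave few cells and was run only as an alternative. Cells were kept with 200 or more genes and at most 15% of counts from mitochondrial genes, and doublets were called with Scrublet in scanpy 1.11.5 at an assumed rate of 0.05, which removed 51 control and 74 mutant cells. Libraries were integrated in Seurat 5.3.0 (R 4.3.3) without the 6 genes and Myrf, clustered at resolution 0.8, and retinal neurons were clustered again. A class name needed a mean marker score of 1 from a list of 5 or more measured markers, 3 of them detected, and in shallow clusters also 3 markers among the 10 leading genes. These naming thresholds and the second clustering were set after the clusters were seen, and the genes and lists were chosen with earlier results of these data known.

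Levels are summed UMIs per 1000000 UMIs of a class (CPM) with exact Poisson intervals. Ratios added 1 UMI to each sum and carry exact conditional binomial intervals, and shares carry Clopper-Pearson intervals. Cells were thinned to 5000 UMIs for shares, which left out 756 control and 823 mutant retinal cells that were shallower. In a library pools are the unit and PCR, capture and embryo differences are not covered by these intervals. A log2 ratio was called past 1.5-fold, and genes were counted where they had at least 50 UMIs over both libraries in the class. Members were named in every class, and of the 3 genes of each list with the most UMIs in retinal cells only some are given with values. Other genes of the lists were named, after their values were seen, where they passed 1.5-fold in neurogenic-like cells. Listed genes that passed it in the other classes are not all named. A result of the list of other bHLH genes is not reported here. The log2 ratio with its interval and the thinning were tested on simulated data, and the other steps were not.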

Additional observations from a re-analysis of the deposited data

Results flagged for a closer look

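Hes6 was above the red blood cell-like level of 17.4 CPM in the control and 17.6 CPM in the mutant in 7 classes of cells outside the neural retina, which entered no comparison above and had at least 50 Hes6 UMIs in each library. Muscle-like cells were highest, at 553.6 and 415.3 CPM. RPE-like cells were at 107.2 and 95.61 CPM, endothelial-like cells at 103.7 and 56.64 CPM, melanocyte-like cells at 96.42 and 95.72 CPM, macrophage-like cells at 77.15 and 60.22 CPM, periocular mesenchyme-like cells at 56.5 and 59.71 CPM and pericyte-like cells at 40.2 and 43.42 CPM. Schwann or neural crest-like cells, 22 and 38 in number, were at 49.6 CPM from 15 UMIs and 90.1 CPM from 51 UMIs, under that minimum in the control. Depth differed, and the same number of stray UMIs gives a higher CPM in a shallower cell. RPE-like, macrophage-like and endothelial-like cells had medians of 3886, 5053 and 6254 UMIs, against 20955 and 23228 in the red blood cell-like clusters. Atoh7 was at 216.8 CPM in RPE-like cells. The part of stray RNA in these Hes6 levels was not tested, and no expression is read in the shallower classes. The cause was not tested.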

How the results depend on the processing

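With 1 pool per genotype and counting error as the only error, depth limits Neurod4 and Olig2 most, and the pools' embryos cannot be told apart from the genotype. No paired analysis was possible because each genotype has 1 library. Of the alternative ratios in retinal cells, 82 lay within the counting interval, 23 lay outside it and 3 reversed a ratio whose interval excluded 0, and 17 of all these had the other sign. Of those within classes, 276 lay within the interval, 64 lay outside it and 8 reversed such a ratio, and 67 had the other sign. Of the alternative shares for co-detection (Neurog2 in Atoh7 cells, Neurod1 in Neurod4 cells and Neurog2 in Olig2 cells) 77 stayed within the interval and 21 moved. Of the alternative levels, 390 stayed within the interval and 284 moved. The alternatives without unnamed clusters, without cells under 5000 UMIs, without the 5 cells with the most UMIs and with 5 Atoh7 UMIs were chosen after seeing the data, as was leaving out shared barcodes or the highest red blood cell-like cell. The cause of these shifts was not tested.

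For Atoh7 the log2 ratio in retinal cells was 0.058 without cells over 20000 UMIs, -0.17 without cells over 2000 UMIs, 0.13 with a mitochondrial limit of 5%, -0.10 in female and 0.25 in male cells, 0.063 with a rule per cell, 0.058 as a mean over cells of log values, 0.045 without unnamed clusters, 0.11 without cells under 5000 UMIs and 0.11 without the 5 highest cells. For Neurog2 it was 0.14, -0.064 and 0.35 under the first 3 of these, 0.16 in female and 0.11 in male cells and 0.027 as a mean of log values. Without cells over 2000 UMIs, which leaves 313 control and 365 mutant cells, it was -0.53 for Neurod1, -1.83 for Olig2 and -0.34 for Hes6. Female cells gave -0.18 for Neurod1, -0.75 for Olig2 and -0.11 for Hes6, and male cells 0.60 for Olig2. Hes6 was at -0.053 without cells over 20000 UMIs, 0.068 with the 5% limit and -0.041 with the rule per cell.

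The share of Atoh7 cells with Neurog2 was 9.74% in the control and 9.88% in the mutant without cells over 2000 UMIs, 17.1% and 18.8% with the rule per cell, 15.6% and 18.2% after thinning to 3000 UMIs, 16.3% and 16.9% where 2 UMIs were required and 28.5% and 28.1% in male cells. It was 23.8% in the control after thinning to 8000 UMIs, and in the mutant 31.1% in female cells and 25.3% where 5 Atoh7 UMIs were required.

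Within classes, Atoh7 in amacrine or horizontal-like cells turned to 0.68 in male cells, and in ganglion-like cells to 0.031. In progenitor-like cells Atoh7 turned to -0.22 with all variable features, -0.032 without cells over 20000 UMIs, -1.69 without cells over 2000 UMIs, -0.56 with the rule per cell and -0.11 as a mean of log values, and Neurog2 turned to -0.39 without cells over 2000 UMIs. Atoh7 was at 1.18 in male progenitor-like cells, and 4 of its 18 alternatives in this class were past 1.5-fold. In neurogenic-like cells Neurod4 was past it in 3 of 17 alternatives, with its highest ratio, 1.28, after thinning to 5000 UMIs. Olig2 was past it there in 2 of 17, at -0.80 in female and 0.59 in male cells. With a minimum of 10 UMIs in place of 50, the share of all genes past 1.5-fold was 7.99% in retinal cells and 14% in neurogenic-like cells.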
